A study of Homo sapiens with 24 samples.

Results

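The EGF family genes described here are the 6 ligand genes AREG, EREG, HBEGF, TGFA, BTC and EGF and the 3 receptor genes EGFR, ERBB2 and ERBB3, followed over 8 culture conditions of HepaRG cells. They were chosen by name, and their probes were those whose RefSeq transcript belongs to these genes, which gave 15 of the 28174 array probes with a gene symbol and 9 of the 20503 genes with one. All 15 probes passed the filter on dim signals, and the brightest probe of each gene entered the tests among 24617 genes. Of these, 15977 had a gene symbol, and those without one are counted wherever all genes are given. HepaRG is a human line from a hepatocellular carcinoma whose proliferating cells behave as bipotent liver progenitors. RNA was hybridized to 24 one-colour microarrays, 3 independent cultures for each condition. Cells were left untransfected, were electroporated with 80 pmol of a negative control siRNA or of a single siRNA against CTNNB1, the gene of β-catenin, or were left untransfected and given 300 ng/ml of FZD8_CRD, a soluble mouse Frizzled 8 domain that binds Wnt proteins. Each of these 4 arms was cultured without or with 200 ng/ml of mouse recombinant Wnt3a, and the stimulations lasted 72 h in serum-free medium with 0.1% BSA. The labels name no added ligand of the EGF family. The replicate number of an array is also its slide, and each condition lay at the same place on all 3 slides, so that the place on the slide and the condition cannot be told apart.

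Ligands of the EGF family are made as membrane-anchored precursors, are cut from the cell surface by ADAM proteases, and bind receptor tyrosine kinases of the ERBB family. Bound receptors pair, phosphorylate each other and signal through RAS, ERK and PI3K, while induced inhibitors such as ERRFI1 and the Sprouty proteins dampen the signal. In the liver, hepatocytes carry EGFR and ERBB3, and EGFR ligands are known for their part in regeneration.

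Levels are given as log2 of the background-subtracted signal of a probe over the 75th percentile of its array, so that 0 is a signal equal to that percentile, and they compare 1 probe between arrays but not 1 probe with another. The values of a condition are listed in the order of replicates 1, 2 and 3. A log2 fold change is the difference between 2 condition means, with its SE and a p-value from limma adjusted over all genes tested, and a gene is called where that p is under 0.05.

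CTNNB1 was read first, as a check of the siRNA label. Its level was 3.35, 3.37 and 3.51 after control siRNA and 0.26, 0.35 and 0.52 after CTNNB1 siRNA without Wnt3a. With Wnt3a it was 3.39, 3.62 and 3.67 after control siRNA and 0.33, 0.53 and 0.77 after CTNNB1 siRNA. All 6 arrays with the CTNNB1 siRNA thus lay far below the other 18, among which the lowest level was 3.23. The log2 fold change was -3.03 (SE 0.17, adjusted p = 1.15e-09) without Wnt3a and -3.02 (SE 0.17, adjusted p = 7.61e-10) with it. Hepatocyte genes ALB, TTR, SERPINA1, TF, APOA1 and HNF4A and the epithelial and biliary keratin genes KRT8, KRT18, KRT7 and KRT19 were well above background on all 24 arrays. Among markers of other cell types, HBB was above background on 0 arrays, while PTPRC and PECAM1 were on 24, with a summed signal between 0.0869 and 0.171 times the 75th percentile. The progenitor marker EPCAM was detected on 1 array.

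The genes of EREG and AREG stand next to each other on chromosome 4, and BTC lies further along the same chromosome. The first pair was higher with FZD8_CRD and BTC was lower after CTNNB1 siRNA (below), so the 250 bases before their starts are shown, 5′ to 3′, from the RefSeq promoter table on build GRCh38.p14, which held 8 of the 9 genes and not ERBB3. EREG is at chr4:74364895-74365144 on the + strand, AREG at chr4:74444886-74445135 on the + strand, and BTC at chr4:74794524-74794773 on the - strand. Capitals mark matches to the motifs searched, and all 3 stretches lie upstream of the annotated start, outside the transcript.
EREG: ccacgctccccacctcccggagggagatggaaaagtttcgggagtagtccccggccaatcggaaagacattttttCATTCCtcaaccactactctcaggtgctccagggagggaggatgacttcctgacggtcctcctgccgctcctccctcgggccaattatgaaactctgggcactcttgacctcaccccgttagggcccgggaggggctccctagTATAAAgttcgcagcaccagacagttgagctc
AREG: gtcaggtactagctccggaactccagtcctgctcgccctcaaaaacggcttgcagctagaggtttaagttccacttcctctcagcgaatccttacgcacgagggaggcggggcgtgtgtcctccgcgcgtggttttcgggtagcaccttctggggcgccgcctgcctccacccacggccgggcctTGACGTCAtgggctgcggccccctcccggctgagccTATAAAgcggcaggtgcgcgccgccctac
BTC: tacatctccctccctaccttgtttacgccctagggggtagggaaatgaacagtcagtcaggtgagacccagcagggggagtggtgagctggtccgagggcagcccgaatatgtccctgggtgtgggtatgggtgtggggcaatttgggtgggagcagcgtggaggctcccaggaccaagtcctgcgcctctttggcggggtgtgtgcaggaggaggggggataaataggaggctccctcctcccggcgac

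The letters searched on both strands were the TCF/LEF cores CTTTGA and CTTTGT, the cAMP response element TGACGTCA, the AP-1 site TGANTCA, the TEAD site GGAATG and the TATA box TATAAA. Over the same 250 bases of 35116 RefSeq promoters, the first 5 were found in 11.2%, 13.7%, 1.65%, 6.57% and 11.9%, in that order, and the TATA box in 3763 promoters. The EREG stretch held a TEAD match (CATTCC on the strand shown) starting 175 bases before the start and a TATA box at 32. In AREG, a cAMP response element began 65 bases before the start and a TATA box 29 bases before it. The BTC stretch held none of these letters, and neither did that of HBEGF. A TCF/LEF core was found only for TGFA, which had 2 entries, with CTTTGT at 114. EGF had an AP-1 match at 17 that overlapped a TEAD match at 12, ERBB2 had an AP-1 match at 222, and the 2 EGFR entries held AP-1 matches at 232 and 136, a TEAD match at 114 and TATA boxes at 146 and 36. These matches describe letters in a window and show no binding.

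AREG encodes amphiregulin, a heparin-binding ligand of EGFR. Its level in untransfected cells was 1.70, 1.92 and 1.93 without Wnt3a and 1.49, 1.90 and 1.73 with it. FZD8_CRD gave 2.10, 2.15 and 2.46 without Wnt3a and 2.38, 2.42 and 2.35 with it. All 6 FZD8_CRD arrays lay above the 6 untransfected arrays without FZD8_CRD. Control siRNA gave 2.12, 2.18 and 2.12 without Wnt3a and 1.98, 2.48 and 2.46 with it, also above untransfected cells. CTNNB1 siRNA gave 1.89, 1.92 and 1.56 without Wnt3a, all below the control siRNA, and 2.32, 2.21 and 1.73 with Wnt3a, within its range in part. The order of the means ran from FZD8_CRD with Wnt3a (2.38, SD 0.03) to untransfected cells with Wnt3a (1.71, SD 0.21), and every pair of neighbours in that order overlapped.

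With FZD8_CRD, AREG rose by 0.39 (SE 0.15, adjusted p = 0.0467) without Wnt3a and by 0.68 (SE 0.15, adjusted p = 0.00153) with it. Differences within the slides were 0.40, 0.22 and 0.54 in the former comparison and 0.89, 0.52 and 0.62 in the latter. The rise without Wnt3a passed the threshold narrowly: the call was kept without FZD8_CRD replicate 1 (adjusted p = 0.0412) and lost without any other single array or any 1 of the slides, with adjusted p between 0.058 and 0.194. It was also lost in 7 of 13 alternatives, among them quantile normalization (0.33, adjusted p = 0.0885), the deposited values (0.33, adjusted p = 0.0857) and spike-in scaling (0.00, adjusted p = 0.994). The rise with Wnt3a was called in all 9 fits with arrays left out, at 0.57 to 0.77. Control siRNA against no transfection gave 0.60 (SE 0.15, adjusted p = 0.0186) with Wnt3a and 0.29 (adjusted p = 0.201) without it. That call was lost without untransfected replicate 1 (0.49, adjusted p = 0.137) and without control siRNA replicates 2 (0.51, adjusted p = 0.117) or 3 (0.52, adjusted p = 0.0843), and without any 1 of the slides (0.54 to 0.65, adjusted p between 0.0607 and 0.145). CTNNB1 siRNA gave -0.35 (adjusted p = 0.171) and -0.22 (adjusted p = 0.475), neither of them called. A second AREG probe gave 0.54 (adjusted p = 0.019) and 0.77 (adjusted p = 0.00179) with FZD8_CRD. AREG had a nearly identical copy in older assemblies, from which its probes may not be distinct.

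EREG encodes epiregulin, which binds EGFR and ERBB4. In untransfected cells its level was -2.46, -3.02 and -3.30 without Wnt3a and -3.30, -3.06 and -3.10 with it. FZD8_CRD gave -2.46, -2.35 and -1.97 without Wnt3a and -1.63, -1.71 and -1.58 with it. The 3 arrays with both FZD8_CRD and Wnt3a were the highest of all 24, and in untransfected cells replicate 1 without Wnt3a stood above the other 5. After control siRNA the values were -2.98, -2.78 and -2.83 without Wnt3a and -2.73, -2.50 and -2.28 with it. After CTNNB1 siRNA they were -2.62, -2.62 and -2.79 without Wnt3a and -2.01, -2.28 and -2.58 with it. In both siRNA arms the arrays with Wnt3a lay above those without it. By mean, FZD8_CRD with Wnt3a came first (-1.64, SD 0.06) and did not overlap with FZD8_CRD alone, while all later neighbours, down to untransfected cells with Wnt3a (-3.16, SD 0.13), overlapped.

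With FZD8_CRD and Wnt3a, EREG was higher than with Wnt3a alone by 1.52 (SE 0.18, 95% CI 1.13 to 1.91, adjusted p = 5.08e-06). Within the slides the differences were 1.68, 1.36 and 1.53, and the 9 fits with arrays left out gave 1.44 to 1.60, all called. Without Wnt3a the rise was 0.67 (SE 0.18, adjusted p = 0.00613), with slide differences of 0.01, 0.68 and 1.33, so that slide 1 showed none of it. The call was kept without any single array (0.49 to 0.90) and lost without all arrays of slide 2 (0.67, adjusted p = 0.109) or of slide 3 (0.34, adjusted p = 0.153). It was also lost with spike-in scaling (0.28, adjusted p = 0.481) and in a fit of the 2 conditions alone (0.67, adjusted p = 0.0929). Normexp background correction, which compresses dim signals, brought the values to 0.93 with Wnt3a and 0.39 without it, both called. Wnt3a in the presence of FZD8_CRD gave 0.62 (SE 0.18, adjusted p = 0.0422), with slide differences of 0.83, 0.64 and 0.39. This call was kept without FZD8_CRD replicate 3 (0.77, adjusted p = 0.00855) and lost without any other single array (0.52 to 0.65, adjusted p between 0.094 and 0.248), without slide 1 (adjusted p = 0.51) and without slide 2 (adjusted p = 0.601), and in 6 of 13 alternatives (adjusted p from 0.0549 with no moderation to 0.971 with spike-in scaling). The Wnt3a response with FZD8_CRD minus that of untransfected cells was 0.85 (SE 0.26, adjusted p = 0.17), which is not called. It was called without untransfected replicate 3 (1.03, adjusted p = 0.0397), without FZD8_CRD replicate 3 (0.99, adjusted p = 0.0252) or without slide 3 (1.17, adjusted p = 0.014).

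Control siRNA against no transfection gave 0.65 for EREG (SE 0.18, adjusted p = 0.0323) with Wnt3a, with slide differences of 0.57, 0.56 and 0.82. The call was kept without control siRNA replicate 1 (0.76, adjusted p = 0.0252) or untransfected replicate 2 (0.70, adjusted p = 0.0271) and lost without each of the other 4 arrays, at 0.54 to 0.68, and without any 1 of the slides (adjusted p between 0.0893 and 0.225), and normexp gave 0.38 (adjusted p = 0.0341). Without Wnt3a the value was 0.06 (adjusted p = 0.859). CTNNB1 siRNA gave 0.19 (adjusted p = 0.663) and 0.22 (adjusted p = 0.605), neither called, and Wnt3a gave 0.36 (adjusted p = 0.414) with control siRNA and 0.39 (adjusted p = 0.474) with CTNNB1 siRNA.

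HBEGF encodes heparin-binding EGF-like growth factor, a ligand of EGFR and ERBB4. Untransfected cells had levels of -3.97, -4.09 and -4.36 without Wnt3a and -4.03, -3.69 and -4.19 with it. With FZD8_CRD the levels were -3.23, -2.99 and -3.49 without Wnt3a and -3.05, -3.13 and -3.41 with it. The FZD8_CRD arrays were all above the untransfected ones. Control siRNA gave -3.94, -4.0 and -3.94 without Wnt3a and -3.72, -3.20 and -3.61 with it. CTNNB1 siRNA gave -3.97, -4.32 and -4.41 without Wnt3a and -4.08, -4.54 and -4.12 with it. With Wnt3a the 2 siRNAs did not overlap, and without Wnt3a they did, at replicate 1. The means ran from FZD8_CRD with Wnt3a (-3.20, SD 0.19) to CTNNB1 siRNA with Wnt3a (-4.25, SD 0.26), with a gap between neighbours only at control siRNA with Wnt3a (-3.51) above control siRNA alone (-3.96).

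FZD8_CRD raised HBEGF by 0.90 (SE 0.19, adjusted p = 0.000704) without Wnt3a and by 0.77 (SE 0.19, adjusted p = 0.00302) with it. The slide differences were 0.74, 1.1 and 0.87 without Wnt3a and 0.98, 0.56 and 0.78 with it. The former was called in all 9 fits with arrays left out (0.78 to 1.03) and the latter in 8, the exception being all arrays of slide 1 (0.67, adjusted p = 0.0954). CTNNB1 siRNA lowered HBEGF in the presence of Wnt3a by a log2 fold change of -0.74 (SE 0.19, adjusted p = 0.0141), with slide differences of -0.36, -1.34 and -0.51. Slide 2 carried much of it: the value was -0.58 (adjusted p = 0.0939) without control siRNA replicate 2, -0.59 (adjusted p = 0.0973) without CTNNB1 siRNA replicate 2, and -0.43 (adjusted p = 0.442) without all arrays of slide 2. The call was also lost without slide 1 (-0.92, adjusted p = 0.0735). Normexp brought the 3 called values to 0.53, 0.41 and -0.37, all of them still called. With spike-in scaling the 3 calls were lost, at 0.51 (adjusted p = 0.228), 0.68 (adjusted p = 0.205) and -0.94 (adjusted p = 0.155). Without Wnt3a the CTNNB1 siRNA gave -0.27 (adjusted p = 0.452). The difference between these 2 effects, -0.46 (SE 0.27, adjusted p = 1), was not called.

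BTC encodes betacellulin, another ligand of EGFR and ERBB4. After control siRNA its level was -3.02, -3.10 and -2.91 without Wnt3a and -2.57, -3.02 and -3.09 with it. After CTNNB1 siRNA it was -4.25, -4.11 and -4.56 without Wnt3a and -4.17, -4.06 and -4.66 with it. These 6 arrays were the lowest of the 24 and did not overlap with any other condition. Untransfected cells had -3.31, -3.05 and -3.40 without Wnt3a and -3.00, -2.89 and -3.22 with it. FZD8_CRD gave -3.37, -3.50 and -2.82 without Wnt3a and -3.00, -2.69 and -3.16 with it. These 4 conditions and both control siRNA conditions overlapped as neighbours, with means between -2.89 and -3.25, and the single gap in the order was to the CTNNB1 siRNA means of -4.30 (SD 0.32) and -4.31 (SD 0.23).

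The fall of BTC with CTNNB1 siRNA was -1.30 (SE 0.20, 95% CI -1.72 to -0.88, adjusted p = 0.000287) without Wnt3a. With Wnt3a it was -1.40 (SE 0.20, 95% CI -1.82 to -0.98, adjusted p = 9.24e-05). Slide differences were -1.23, -1.02 and -1.65 in the former and -1.60, -1.04 and -1.57 in the latter. Both were called in every fit with arrays left out, at -1.44 to -1.13 and -1.58 to -1.22, and under all 13 other settings, of which normexp gave the smallest values, -0.70 and -0.64. The Wnt3a response did not differ detectably between the siRNAs (-0.10, SE 0.29, adjusted p = 1). FZD8_CRD gave 0.02 (adjusted p = 0.945) and 0.09 (adjusted p = 0.774), and Wnt3a in the presence of FZD8_CRD gave 0.28 (adjusted p = 0.512), with slide differences of 0.37, 0.81 and -0.34, and without slide 3 it was called (0.59, adjusted p = 0.034).

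EGF encodes epidermal growth factor itself. Its level in untransfected cells was -2.16, -2.27 and -2.22 without Wnt3a and -2.41, -2.04 and -2.49 with it. Control siRNA gave -1.71, -1.74 and -1.65 without Wnt3a and -1.64, -1.83 and -1.91 with it. FZD8_CRD gave -1.79, -1.75 and -1.95 without Wnt3a and -1.71, -1.95 and -1.95 with it. Untransfected cells without FZD8_CRD were the lowest, and their 6 arrays overlapped with none of the other 18. CTNNB1 siRNA gave -1.72, -1.72 and -1.90 without Wnt3a and -1.45, -1.45 and -1.80 with it, within or near the control siRNA. All other neighbours in the order, from CTNNB1 siRNA with Wnt3a (-1.56, SD 0.20) to FZD8_CRD with Wnt3a (-1.87, SD 0.14), overlapped.

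Against no transfection, control siRNA gave EGF log2 fold changes of 0.52 (SE 0.12, adjusted p = 0.00513) without Wnt3a and 0.52 (SE 0.12, adjusted p = 0.0145) with it. Slide differences were 0.45, 0.53 and 0.57 without Wnt3a and 0.76, 0.21 and 0.57 with it. The former call was kept without any single array and lost without slide 1 (0.55, adjusted p = 0.113) or slide 2 (0.51, adjusted p = 0.0715). The latter was kept without untransfected replicate 2 (0.65, adjusted p = 0.00127) or control siRNA replicate 3 (0.57, adjusted p = 0.0318) and lost without the other 4 (0.43 to 0.53), without slide 1 (0.39, adjusted p = 0.36) and without slide 3 (0.49, adjusted p = 0.0532). FZD8_CRD gave 0.39 (SE 0.12, adjusted p = 0.0169) without Wnt3a and 0.44 (SE 0.12, adjusted p = 0.00872) with it, with slide differences of 0.37, 0.52 and 0.27 and of 0.69, 0.09 and 0.54. The former call was lost without untransfected replicate 2 (0.36, adjusted p = 0.0528) or FZD8_CRD replicate 2 (0.34, adjusted p = 0.0655), and the latter without FZD8_CRD replicate 1 (0.36, adjusted p = 0.0545). Without slide 1 both were lost (adjusted p = 0.122 and 0.255), and without slide 2 the former (adjusted p = 0.169). CTNNB1 siRNA gave -0.08 (adjusted p = 0.829) and 0.23 (adjusted p = 0.309).

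TGFA encodes transforming growth factor α, a ligand of EGFR. Its brightest probe read between 0.60 and 1.12 on slide 3 and between -0.06 and 0.40 on slides 1 and 2, so that replicate 3 was the highest in each of the 8 conditions. All neighbours in the order of the means overlapped, from 0.51 (SD 0.56) in untransfected cells with Wnt3a to 0.24 (SD 0.43) after CTNNB1 siRNA alone. TGFA was called in 0 comparisons by limma, with 0 of 12 at an unadjusted p under 0.05, and with an SE of 0.32 in each pairwise comparison, which takes in the difference between slides. With the replicate number as a block, TGFA was not called either, and its adjusted p went from 0.817 to 0.152 for CTNNB1 siRNA without Wnt3a (-0.21, slide differences of -0.37, -0.14 and -0.13) and from 0.66 to 0.0923 for FZD8_CRD with Wnt3a (-0.20, slide differences of -0.35, 0.04 and -0.29). A second TGFA probe read -3.81 (SD 0.11) after control siRNA and -4.38 (SD 0.17) after CTNNB1 siRNA without Wnt3a, a log2 fold change of -0.57 (SE 0.22, adjusted p = 0.119). The mean of both probes, -0.39, was called in that comparison (adjusted p = 0.0414).

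**Figure D1:**
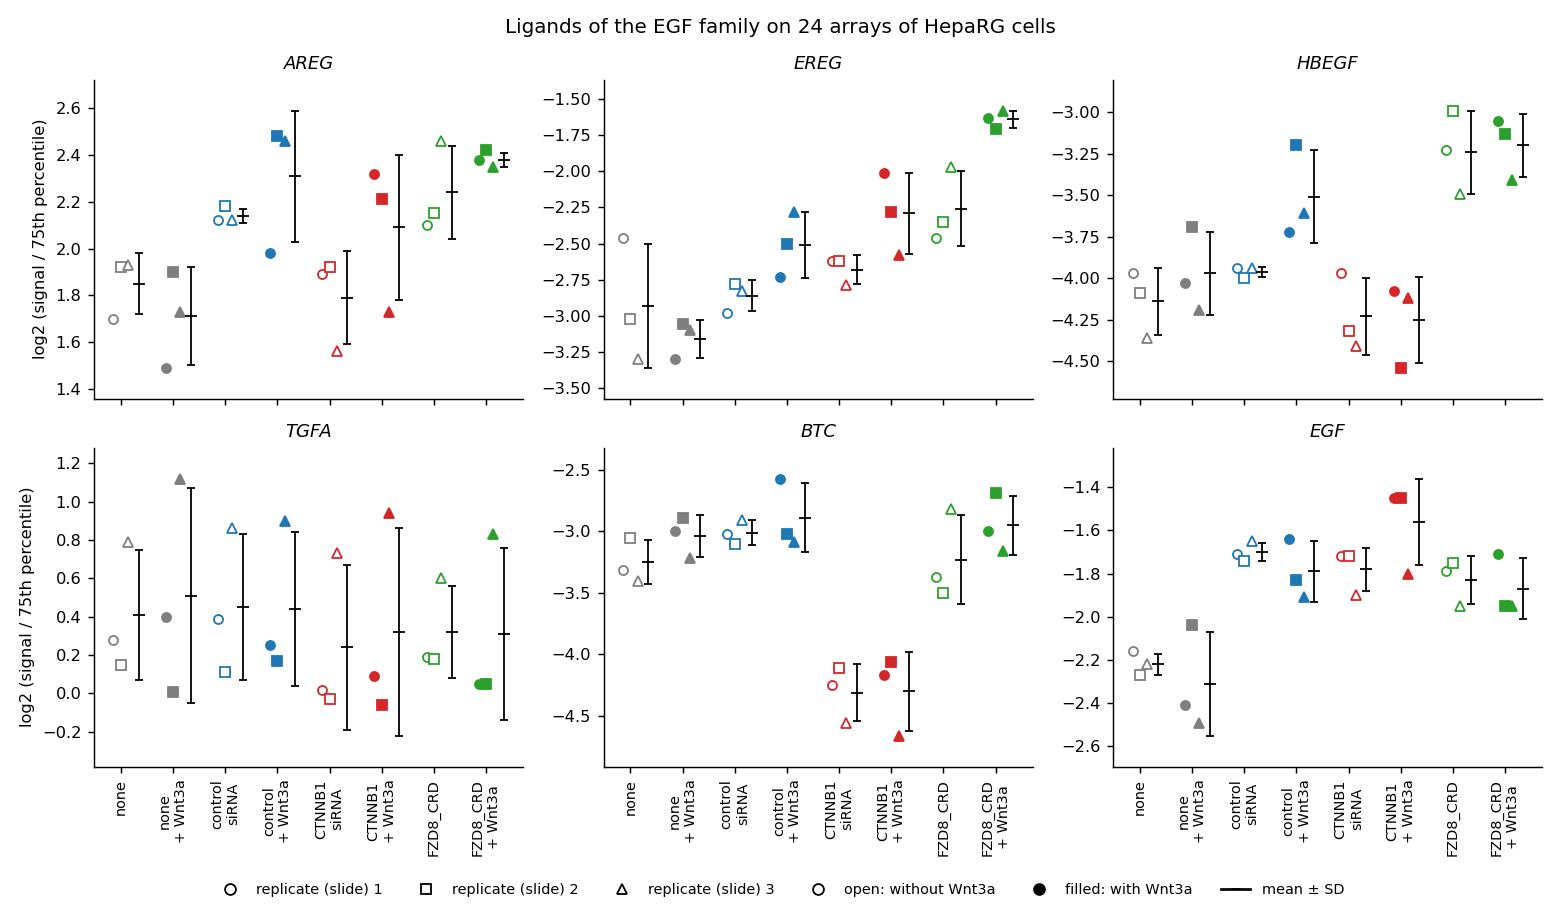
Levels of the 6 ligand genes on each of the 24 arrays, as log2 of the signal over the 75th percentile of the array (y axis, its own range in each panel), by condition (x axis), with the mean and SD of the 3 arrays of a condition beside them. BTC is lowest on the 6 CTNNB1 siRNA arrays, EREG is highest on the 3 arrays with FZD8_CRD and Wnt3a, and the triangles of slide 3 are the highest TGFA values in every condition.

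EGFR is the receptor of the ligands above. Control siRNA gave levels of 0.08, 0.00 and 0.27 without Wnt3a and -0.13, -0.11 and -0.22 with it. CTNNB1 siRNA gave 0.57, 0.62 and 0.81 without Wnt3a and 0.66, 0.58 and 0.63 with it. The 6 CTNNB1 siRNA arrays were the highest of the 24, and no array of another condition reached them. In untransfected cells the values were 0.53, 0.35 and 0.32 without Wnt3a and 0.27, 0.11 and 0.31 with it. FZD8_CRD gave 0.53, 0.51 and 0.10 without Wnt3a and -0.15, -0.25 and -0.16 with it. FZD8_CRD with Wnt3a (mean -0.19, SD 0.06) and control siRNA with Wnt3a (-0.15, SD 0.06) overlapped at the bottom of the order. They lay apart from the next condition, control siRNA alone (0.12, SD 0.14). Among the 4 middle conditions, neighbours in the order overlapped with each other.

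CTNNB1 siRNA against control siRNA gave EGFR 0.55 (SE 0.10, 95% CI 0.33 to 0.77, adjusted p = 0.00163) without Wnt3a. With Wnt3a it gave 0.78 (SE 0.10, 95% CI 0.56 to 1.00, adjusted p = 4.48e-05). Slide differences were 0.49, 0.62 and 0.55 without Wnt3a and 0.80, 0.69 and 0.85 with it. Both calls were kept without any single array (0.48 to 0.63 and 0.75 to 0.80), and the difference between them, 0.23 (SE 0.15, adjusted p = 1), was not called. The call without Wnt3a was lost without all arrays of slide 1 or of slide 2 (adjusted p = 0.0724 and 0.0989) and with the mean of the EGFR probes (0.38, adjusted p = 0.0887). Wnt3a in the presence of FZD8_CRD lowered EGFR, with a log2 fold change of -0.57 (SE 0.10, adjusted p = 0.00294) and slide differences of -0.68, -0.77 and -0.26, a call kept without any single array (-0.71 to -0.49) and lost without slide 1 or slide 2 (adjusted p = 0.415 and 0.371). Wnt3a alone gave -0.17 (adjusted p = 0.369) in untransfected cells, whose 2 groups did not overlap and where it was called without slide 3 (-0.25, adjusted p = 0.0391), and -0.27 (adjusted p = 0.217) after control siRNA. The difference between the Wnt3a responses with and without FZD8_CRD was -0.39 (SE 0.15, adjusted p = 0.248), not called, and it was called without FZD8_CRD replicate 3 (-0.53, adjusted p = 0.0114) or slide 3 (-0.47, adjusted p = 0.0229).

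With Wnt3a, FZD8_CRD against none gave EGFR -0.42 (SE 0.10, adjusted p = 0.00357), with slide differences of -0.42, -0.37 and -0.47 and a call kept without any single array (-0.48 to -0.38) and lost without slide 1 (-0.42, adjusted p = 0.0769), while without Wnt3a it gave -0.02 (adjusted p = 0.882). Control siRNA against no transfection gave -0.38 (SE 0.10, adjusted p = 0.0267) with Wnt3a, a call that was kept without control siRNA replicate 1 (-0.39, adjusted p = 0.0469) or untransfected replicate 2 (-0.44, adjusted p = 0.0117) and lost without the other 4 arrays (-0.40 to -0.34), without any 1 of the slides (adjusted p between 0.0507 and 0.305) or with the mean of the probes (-0.20, adjusted p = 0.423). Without Wnt3a it gave -0.29 (adjusted p = 0.0533), with slide differences of -0.45, -0.35 and -0.06. This value was called without replicate 3 of either condition (-0.33, adjusted p = 0.0485, and -0.36, adjusted p = 0.0336) and without slide 3 (-0.40, adjusted p = 0.00368). It was also called in 4 alternatives, with adjusted p from 0.0386 (the replicate number as a block) to 0.0497. Of the other EGFR probes, which match shorter transcripts, the first gave 0.28 (adjusted p = 0.102) and 0.44 (adjusted p = 0.00948) with CTNNB1 siRNA, -0.40 (adjusted p = 0.025) for Wnt3a with FZD8_CRD, and -0.25 (adjusted p = 0.069), not called, for FZD8_CRD against none with Wnt3a. For control siRNA with Wnt3a it gave 0.21 (adjusted p = 0.248), opposite in sign to the brightest probe. The second gave 0.31 and 0.60 with CTNNB1 siRNA (adjusted p = 0.694 and 0.319).

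ERBB2 encodes the receptor of the family without a known soluble ligand of its own, a favoured partner of the others. Its 24 levels lay between 2.07 and 2.51, and the 8 means lay between 2.18 (SD 0.02) after control siRNA and 2.39 (SD 0.17) in untransfected cells with Wnt3a, a span of 0.21 over which all neighbours overlapped. ERBB2 was called in 0 comparisons by limma, with 0 of 12 at an unadjusted p under 0.05. Its log2 fold changes were 0.04 and -0.08 with CTNNB1 siRNA and 0.06 and -0.15 with FZD8_CRD, without and with Wnt3a, each with an SE of 0.09. Without untransfected replicate 3 with Wnt3a, the last of these was -0.25 (adjusted p = 0.0455).

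ERBB3 encodes a receptor of neuregulins with a weak kinase, which signals to PI3K when paired with ERBB2 or EGFR. Untransfected cells had levels of 2.24, 1.98 and 1.45 without Wnt3a and 1.45, 0.47 and 1.78 with it. FZD8_CRD gave -0.03, -0.43 and -0.18 without Wnt3a and -0.45, -0.56 and -0.26 with it. The 6 FZD8_CRD arrays lay below all 6 untransfected arrays without it, among which replicate 2 with Wnt3a was far below the others. Control siRNA gave 0.51, 0.63 and 0.41 without Wnt3a and 0.17, -0.25 and 0.01 with it. CTNNB1 siRNA gave 1.26, 1.08 and 1.27 without Wnt3a and 0.36, 0.88 and 1.26 with it. With either Wnt3a setting the CTNNB1 siRNA arrays lay above those of the control siRNA, by a small margin for replicate 1 with Wnt3a. The means spanned 2.31, the widest of the 9 genes, from 1.89 (SD 0.40) in untransfected cells to -0.42 (SD 0.15) with FZD8_CRD and Wnt3a, and the single gap between neighbours was below control siRNA alone (0.51, SD 0.11).

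**Figure D2:**
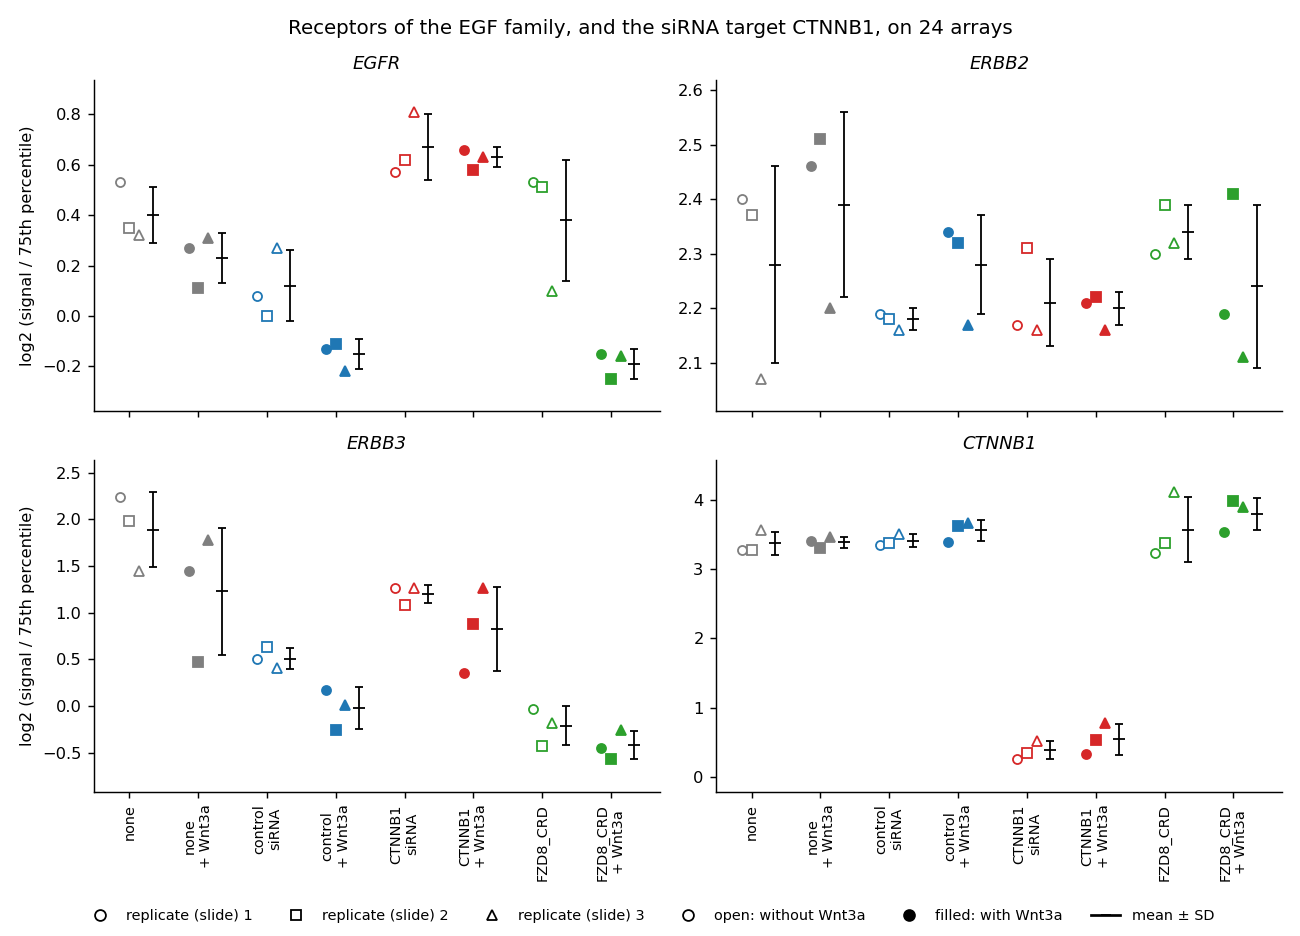
Levels of the 3 receptor genes and of CTNNB1 on each of the 24 arrays, as log2 of the signal over the 75th percentile (y axis, its own range in each panel), by condition (x axis), with the mean and SD of 3 arrays beside them. EGFR is highest on the 6 CTNNB1 siRNA arrays, ERBB3 has its highest mean in untransfected cells without Wnt3a, where it overlaps with those given Wnt3a, and ERBB2 lies between 2.07 and 2.51.

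FZD8_CRD lowered ERBB3 by a log2 fold change of -2.10 (SE 0.26, 95% CI -2.65 to -1.56, adjusted p = 3.73e-06) without Wnt3a. With Wnt3a the change was -1.65 (SE 0.26, 95% CI -2.20 to -1.11, adjusted p = 6.47e-05). Within the slides the differences were -2.27, -2.41 and -1.63 without Wnt3a and -1.90, -1.02 and -2.04 with it. Both were called in every fit with arrays left out, at -2.34 to -1.93 and -2.03 to -1.38. Control siRNA against no transfection gave -1.37 (SE 0.26, adjusted p = 0.000946) without Wnt3a and -1.25 (SE 0.26, adjusted p = 0.00774) with it, with slide differences of -1.73, -1.35 and -1.04 and of -1.27, -0.72 and -1.77. The former was kept without any single array and lost without slide 1 (-1.19, adjusted p = 0.0886). The latter was lost without untransfected replicate 1 (-1.15, adjusted p = 0.0601), control siRNA replicate 2 (-1.14, adjusted p = 0.0569), slide 1 (-1.25, adjusted p = 0.159) or slide 3 (adjusted p = 0.0579). The 2 treatments share the untransfected arrays as their reference.

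CTNNB1 siRNA against control siRNA gave ERBB3 0.86 (SE 0.26, adjusted p = 0.0389) with Wnt3a, with slide differences of 0.19, 1.13 and 1.25, and 0.69 (SE 0.26, adjusted p = 0.104) without it, with slide differences of 0.75, 0.45 and 0.86. The call was kept without CTNNB1 siRNA replicate 1 (1.09, adjusted p = 0.0143) and lost without any other single array (0.64 to 0.96, adjusted p between 0.0544 and 0.202) or any 1 of the slides (0.66 to 1.19, adjusted p between 0.0852 and 0.269). A fit of the 2 conditions alone called the value without Wnt3a (adjusted p = 0.00454) and not the value with it (adjusted p = 0.0761), which was also lost with normexp (0.80, adjusted p = 0.0613), no filter on dim probes (adjusted p = 0.0976), no moderation (adjusted p = 0.0682) and spike-in scaling (0.65, adjusted p = 0.457). Wnt3a in untransfected cells gave -0.66 (SE 0.26, adjusted p = 0.143), with slide differences of -0.79, -1.51 and 0.33, and it was called without replicate 3 of either condition (-0.88, adjusted p = 0.0459, and -0.93, adjusted p = 0.0262) and without slide 3 (-1.15, adjusted p = 0.0109). A probe for a shorter ERBB3 transcript gave -0.98 (adjusted p = 2.97e-05) and -0.57 (adjusted p = 0.00504) with FZD8_CRD, and 0.58 (adjusted p = 0.0167) and 0.54 (adjusted p = 0.0232) with CTNNB1 siRNA. A dim probe on 22 arrays gave -0.53 (adjusted p = 0.134) and 0.02 (adjusted p = 0.966) with FZD8_CRD, so that it did not show the fall with Wnt3a, and the mean of the 3 probes gave -1.20 and -0.73, both called. For control siRNA against no transfection, the probe for the shorter transcript gave -0.92 (adjusted p = 0.000317) without Wnt3a and -0.78 (adjusted p = 0.00481) with it. The dim probe gave -0.17 (adjusted p = 0.733) and -0.51 (adjusted p = 0.289), neither called. The mean of the 3 probes gave -0.82 and -0.85, both called.

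Hepatocyte marker genes moved with ERBB3 in some comparisons and not in others. All 6 of 6 (ALB, TTR, SERPINA1, TF, APOA1 and HNF4A) fell with FZD8_CRD without Wnt3a, with a median log2 fold change of -2.11 beside -0.085 over all genes, and 3 of 6 fell with Wnt3a (median -0.90 beside -0.079), where TTR and APOA1 were at 1.41 (adjusted p = 0.133) and 0.55 (adjusted p = 0.542). Wnt3a in the presence of FZD8_CRD raised 2 of 6, TTR (2.62, adjusted p = 0.0283) and APOA1 (2.22, adjusted p = 0.0379), with a median of 0.89, while ERBB3 was at -0.21 (adjusted p = 0.776). The arrays with FZD8_CRD alone were widely spread for TTR (mean 2.62, SD 2.16) and APOA1 (mean 1.23, SD 1.76). With Wnt3a added the SDs were 0.06 and 0.14. The same widely spread arrays enter the fall of 6 of 6 with FZD8_CRD without Wnt3a. After control siRNA, 6 of 6 fell without Wnt3a (median -1.92) and 3 of 6 with it (median -1.24). All genes were called at 41.9% and 37.2% for FZD8_CRD and at 22.3% and 9.03% for control siRNA. For Wnt3a in the presence of FZD8_CRD the share of all genes was 8.3%. With CTNNB1 siRNA, 1 of 6 rose with Wnt3a, which was ALB (1.19, adjusted p = 0.0156), and 0 of 6 were called without it by limma, with 1 at an unadjusted p under 0.05. In both of these comparisons 10.6% of all genes were called. The signal of the list was summed in multiples of the 75th percentile. By mean level, the ALB probe gave the largest part, except after control siRNA with Wnt3a, where SERPINA1 (6.95) was above ALB (6.61). The sum was 1440, 1080 and 757 in untransfected cells and 889, 388 and 891 with Wnt3a. It was 357, 239 and 366 with FZD8_CRD, and 394, 385 and 379 with FZD8_CRD and Wnt3a. After control siRNA it was 399, 365 and 380, or 263, 189 and 256 with Wnt3a, and after CTNNB1 siRNA 611, 464 and 584, or 280, 383 and 486. The array of untransfected cells with Wnt3a that was low in ERBB3, replicate 2, was also low in this sum. In cultures of mixed cells, fewer cells of a type and less RNA per cell cannot be told apart, and the part of the hepatocyte genes in the ERBB3 result was not tested.

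Mesenchymal and other markers moved in several comparisons. With FZD8_CRD, VIM rose by 1.25 (SE 0.19, adjusted p = 3.16e-05) without Wnt3a and by 1.67 (SE 0.19, adjusted p = 2.91e-06) with it, and 2 of 3 and 3 of 3 genes of the list (VIM, CDH2 and ACTA2) rose, beside 41.9% and 37.2% of all genes called. By mean level, the CDH2 probe gave the largest part of their summed signal, except after control siRNA with Wnt3a, where ACTA2 (3.48) was above CDH2 (3.39). The sum was 22.5, 22.0 and 20.3 in untransfected cells and 23.7, 24.3 and 27.2 with FZD8_CRD. With Wnt3a it was 22.4, 24.5 and 22.5 in untransfected cells and 30.3, 29.8 and 26.6 with FZD8_CRD. After control siRNA it was 21.5, 21.5 and 20.4 without Wnt3a and 22.0, 22.2 and 21.9 with it, and after CTNNB1 siRNA 23.5, 24.1 and 22.5 or 25.7, 24.7 and 23.8. VIM fell with CTNNB1 siRNA, by -0.86 (adjusted p = 0.00552) without Wnt3a and -0.84 (adjusted p = 0.00591) with it, while CDH2 rose (0.37 and 0.47), which gave 1 rise and 1 fall among the 3 genes in each comparison, beside 10.6% of all genes called. VIM also rose with control siRNA without Wnt3a (0.77, adjusted p = 0.00604) and with Wnt3a in the presence of FZD8_CRD (0.75, adjusted p = 0.0198), where ACTA2 rose (0.26, adjusted p = 0.0121) and CDH1 fell (-1.60, adjusted p = 0.0128). With Wnt3a in untransfected cells 1 of the 3 mesenchymal genes was called, beside 5.61% of all genes. It was ACTA2, higher with a mean of 3.49 (SD 0.1) against 3.18 (SD 0.09) without Wnt3a. Of the epithelial markers KRT8, KRT18 and CDH1, CDH1 alone was called with FZD8_CRD (-1.08, adjusted p = 0.0267, and -1.96, adjusted p = 0.000416), and 0 of 3 were called with CTNNB1 siRNA by limma, with 1 and 2 at an unadjusted p under 0.05. Of the biliary and progenitor markers, KRT19 rose (0.36 and 0.59) and SOX9 fell (-0.53 and -0.75) with FZD8_CRD, and SOX9 fell with CTNNB1 siRNA and Wnt3a (-0.57, adjusted p = 0.0477). PECAM1, an endothelial marker, was lower with CTNNB1 siRNA without Wnt3a (-0.94, adjusted p = 0.0196), 1 of 2 tested markers of other cell types. The part of these markers in the results was not tested.

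CTNNB1 siRNA against control siRNA gives what differed after this single siRNA at a fixed Wnt3a setting. Without Wnt3a, 2 of 9 were called (BTC lower, EGFR higher), beside 10.6% of all genes, a rate at which about 1 of 9 would be called, and the median over the 9 was -0.079 beside -0.03 over all genes. With Wnt3a, 4 of 9 were called (HBEGF and BTC lower, EGFR and ERBB3 higher), again beside 10.6%, with medians of -0.078 and -0.014. With FZD8_CRD against none and without Wnt3a, 5 of 9 were called (AREG, EREG, HBEGF and EGF higher, ERBB3 lower) beside 41.9% of all genes, with medians of 0.057 and -0.085, where about 4 of 9 would be called at that rate. With Wnt3a, 6 of 9 were called (the same 4 ligands higher, EGFR and ERBB3 lower) beside 37.2%, or about 3 of 9, with medians of 0.086 and -0.079. The comparisons of 1 treatment with and without Wnt3a have no arrays in common, whereas those of control siRNA and FZD8_CRD against no transfection share the untransfected arrays.

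**Figure D3:**
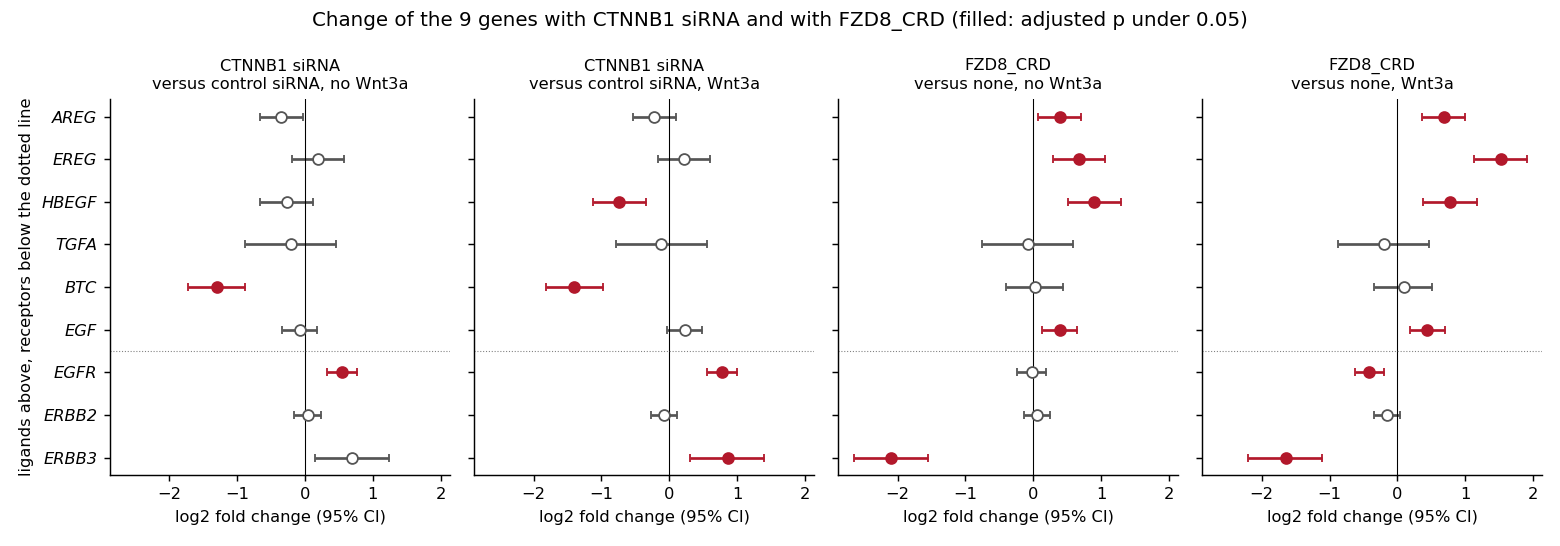
Log2 fold change (x axis) with its 95% CI for the 9 genes (y axis) in 4 comparisons of 3 arrays with 3, with filled points for an adjusted p under 0.05. BTC is at -1.30 and -1.40 with CTNNB1 siRNA, and ERBB3 at -2.10 and -1.65 with FZD8_CRD; the AREG and EGF points of FZD8_CRD without Wnt3a, both at 0.39, moved to 0.00 when arrays were scaled to spike-in probes.

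Control siRNA against no transfection gives what differed after electroporation with the control siRNA. Without Wnt3a, 2 of 9 were called (EGF higher, ERBB3 lower) beside 22.3% of all genes, which is the rate of the 9 genes too, with medians of 0.065 and -0.033. With the replicate number as a block, 3 of 9 were called, EGFR (lower) being added, and 7904 of all genes instead of 5492. With Wnt3a, 5 of 9 were called (AREG, EREG and EGF higher, EGFR and ERBB3 lower) beside 9.03%, or about 1 of 9, with medians of 0.143 and -0.02. The shares of all genes were not stable: with arrays left out, the number called ran from 235 to 6876 (5492 with all arrays) and from 1 to 4042 (2224) for control siRNA without and with Wnt3a, and from 476 to 2376 (2607) and 588 to 2645 (2610) for CTNNB1 siRNA. Wnt3a by itself called none of the 9 genes in 3 of its 4 comparisons. In untransfected cells limma called 0 of 9 beside 5.61% of all genes, with 1 at an unadjusted p under 0.05 (ERBB3). After control siRNA it called 0 of 9 beside 2.11%, with 2 at an unadjusted p under 0.05 (HBEGF, 0.45, and EGFR, -0.27), and after CTNNB1 siRNA 0 of 9 beside 0.0406%, with 1 (EREG, 0.39). In the presence of FZD8_CRD, 2 of 9 were called (EREG higher, EGFR lower) beside 8.3%. The medians over the 9 were -0.093, 0.099, 0.011 and -0.016 in these 4 comparisons, beside 0.014, 0.024, 0.03 and 0.018 over all genes.

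The difference of the Wnt3a response between the siRNAs was called by limma for 0 of the 9 genes beside 0.0162% of all genes, with 0 at an unadjusted p under 0.05. That between FZD8_CRD and none was called for 0 of 9 beside 0.0731%, with 2 at an unadjusted p under 0.05, EREG and EGFR. Scaling the arrays to 7 spike-in probes moved the median change of all genes, to -0.475 for FZD8_CRD without Wnt3a, -0.169 with it, -0.314 and 0.251 for control siRNA, and 0.057 and -0.216 for CTNNB1 siRNA. It called 7361 genes for FZD8_CRD without Wnt3a (549 higher, 6812 lower, against 4852 and 5467 before) and 2361 with it (9162 before). On that scale 6 of the 26 calls were kept: BTC with CTNNB1 siRNA (-1.21 and -1.61), ERBB3 with FZD8_CRD (-2.49 and -1.74), ERBB3 with control siRNA without Wnt3a (-1.65), and EREG with FZD8_CRD and Wnt3a (1.43). Values of lost calls did not all shrink. With control siRNA and Wnt3a, AREG, EREG and EGF were at 0.87, 0.92 and 0.79. HBEGF with CTNNB1 siRNA and Wnt3a was at -0.94, and EGFR with CTNNB1 siRNA at 0.64 and 0.58. Other values moved towards 0, such as HBEGF (0.51) and EREG (0.28) with FZD8_CRD without Wnt3a. So did EGF with control siRNA without Wnt3a (0.24) and EGFR with control siRNA and Wnt3a (-0.11). AREG and EGF with FZD8_CRD without Wnt3a were then at 0.00 (adjusted p = 0.994 and 0.992), above the median of all genes but not higher on that scale. The scale itself varied between replicates. On the 3 arrays with FZD8_CRD alone, the log2 spike-in signal over the 75th percentile was 2.392, 2.665 and 3.232.

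**Figure D4:**
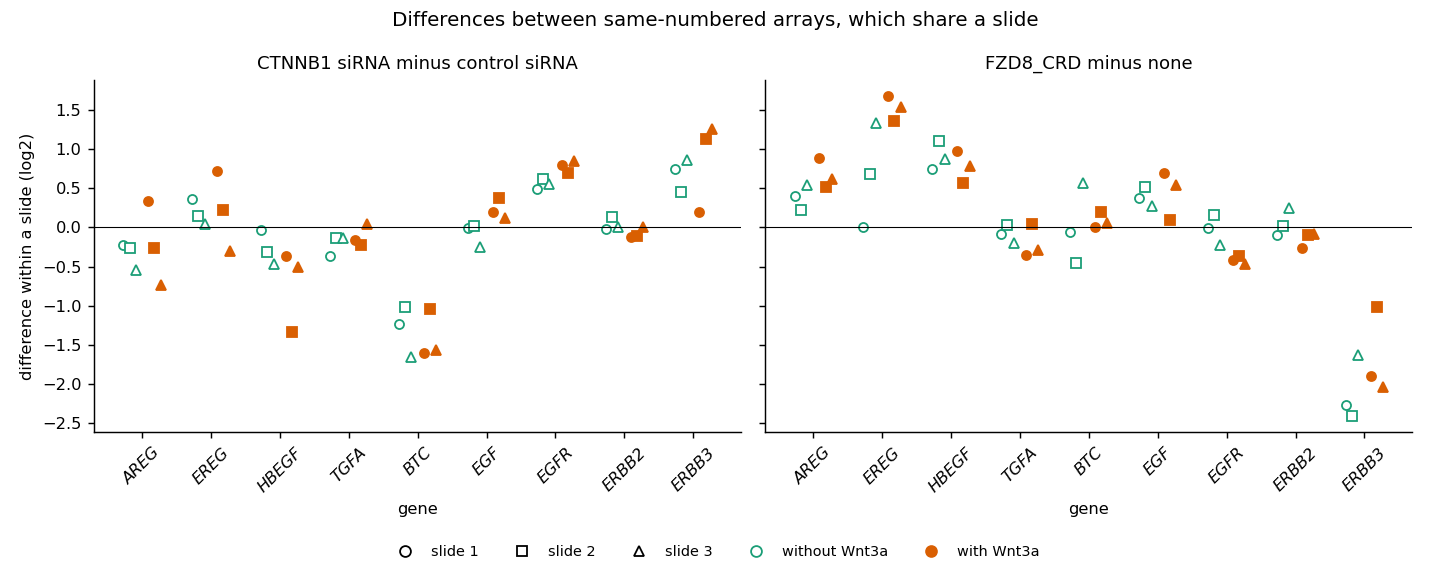
Difference between arrays of the same slide (y axis, log2) for the 9 genes (x axis), CTNNB1 siRNA minus control siRNA on the left and FZD8_CRD minus none on the right, 1 point for each of 3 slides without (open) and with (filled) Wnt3a. In the left panel all 6 points of BTC (-1.65 to -1.02), HBEGF (-1.34 to -0.03), EGFR (0.49 to 0.85) and ERBB3 (0.19 to 1.25) lie on 1 side of 0. In the right panel the 6 EREG points run from 0.01 to 1.68.

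Other genes of the pathway were followed in lists by role, whose medians may be read beside those of all genes given above. Among the other ligands, EPGN was detected on 0 arrays and NRG3 on at most 1, and 3 of 5 were tested. NRG1, a ligand of ERBB3 and ERBB4, rose with FZD8_CRD (0.62, SE 0.11, adjusted p = 9.11e-05, and 0.53, SE 0.11, adjusted p = 0.000544 with Wnt3a), and NRG2 fell (-0.61, SE 0.18, adjusted p = 0.00979, and -0.69, SE 0.18, adjusted p = 0.00474). That was 1 rise and 1 fall among the 3 tested in each comparison, beside 41.9% and 37.2% of all genes called. With CTNNB1 siRNA limma called 0 of 3, beside 10.6% of all genes at either Wnt3a setting. At an unadjusted p under 0.05 there were 0 without Wnt3a and 1 with it. The largest values were those of NRG2 (-0.28, adjusted p = 0.412, and -0.36, adjusted p = 0.263). NRG2 also fell with Wnt3a, in untransfected cells (-0.67, adjusted p = 0.0361) and with FZD8_CRD (-0.75, adjusted p = 0.0141). ERBB4, the remaining receptor, was higher with CTNNB1 siRNA and Wnt3a by 1.02 (SE 0.19, adjusted p = 0.00137), was at 0.51 (adjusted p = 0.104) without Wnt3a, and fell with Wnt3a in the presence of FZD8_CRD (-0.66, adjusted p = 0.0397), with similar but uncalled values in untransfected cells (-0.63, adjusted p = 0.0602) and after control siRNA (-0.71, adjusted p = 0.0597).

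Of 8 sheddases and trafficking genes, which cut or carry the ligand precursors, 0 rose and 2 fell with CTNNB1 siRNA, both without Wnt3a (median -0.09 beside -0.03 over all genes) and with it (median -0.09 beside -0.014), where the all-gene rate of 10.6% gives about 1. They were CD9, a tetraspanin that binds ligand precursors (-0.93, SE 0.16, adjusted p = 0.000587, and -1.51, SE 0.16, adjusted p = 2.64e-06), and the protease gene ADAM10 (-0.49, adjusted p = 0.00148, and -0.46, adjusted p = 0.00236). With FZD8_CRD, 4 rose and 0 fell without Wnt3a (median 0.46) and 2 rose and 0 fell with it (median 0.26), beside all-gene medians of -0.085 and -0.079. At the all-gene rates of 41.9% and 37.2%, about 3 of 8 would be called in each. The protease gene ADAM12 rose by 1.82 (SE 0.27, adjusted p = 2.81e-05) and 1.48 (SE 0.27, adjusted p = 0.000298), and ADAM17, the main sheddase of AREG, EREG and HBEGF, by 0.59 (SE 0.10, adjusted p = 7.97e-05) without Wnt3a. CD9 rose by 0.86 (adjusted p = 0.000192) with FZD8_CRD alone, and also with control siRNA (0.74, adjusted p = 0.00206, and 0.79, adjusted p = 0.00595). In the control siRNA comparisons 3 and 1 of the 8 rose (about 2 and 1 at the all-gene rates of 22.3% and 9.03%), and Wnt3a raised ADAM12 in untransfected cells (1.01, adjusted p = 0.0369).

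Of 9 receptor inhibitors, 3 rose and 0 fell with CTNNB1 siRNA without Wnt3a (median 0.12), and 2 rose and 1 fell with Wnt3a (median 0.04), where the all-gene rate of 10.6% gives about 1. LRIG3 rose in both (0.45, SE 0.08, adjusted p = 0.0013, and 0.47, SE 0.08, adjusted p = 0.00072), and ERRFI1, an inhibitor of the EGFR kinase, rose with Wnt3a (0.74, SE 0.22, adjusted p = 0.0363). With FZD8_CRD, 1 rose and 2 fell without Wnt3a and 0 rose and 2 fell with it (medians 0.01 and -0.11), below the about 4 and 3 that the all-gene rates of 41.9% and 37.2% give. ERRFI1 fell in both (-1.01, SE 0.22, adjusted p = 0.0011, and -1.13, SE 0.22, adjusted p = 0.000508), and it fell with control siRNA without Wnt3a (-0.68, adjusted p = 0.0337) and with Wnt3a in the presence of FZD8_CRD (-0.72, adjusted p = 0.0495). LRIG1, which lowers receptor protein, rose with FZD8_CRD alone (0.40, adjusted p = 0.0167).

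Of 19 adaptors and signal transducers, 0 rose and 4 fell with CTNNB1 siRNA without Wnt3a, and 1 rose and 3 fell with it, both with a median of -0.06, where the all-gene rate of 10.6% gives about 2. MAP2K1, which encodes a MEK kinase, fell by a log2 fold change of -0.64 (SE 0.07, adjusted p = 5.95e-06) and -0.55 (SE 0.07, adjusted p = 1.88e-05). With FZD8_CRD, 6 rose and 1 fell without Wnt3a (median 0.12), and 7 rose and 3 fell with it (median 0.10), that is 7 and 10 of 19 where the all-gene rates of 41.9% and 37.2% give about 8 and 7. PIK3R1, the regulatory subunit of PI3K, fell (-0.89, SE 0.15, adjusted p = 9.08e-05, and -1.42, SE 0.15, adjusted p = 1.5e-06). With control siRNA, 5 rose and 1 fell without Wnt3a and 3 rose and 1 fell with it (about 4 and 2 at the all-gene rates of 22.3% and 9.03%), led by MAPK3 (0.50, adjusted p = 0.000271) in the former and PIK3R1 (-0.53, adjusted p = 0.0314) in the latter.

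Of 15 genes that ERK signaling induces or that feed back on it, 2 rose and 1 fell with CTNNB1 siRNA without Wnt3a (median -0.11), and 2 rose and 3 fell with it (median -0.30), where the all-gene rate of 10.6% gives about 2. DUSP5, a phosphatase of ERK, fell (-0.85, SE 0.21, adjusted p = 0.0109, and -1.15, SE 0.21, adjusted p = 0.000907), and SPRY2, a Sprouty inhibitor, rose (0.51, SE 0.12, adjusted p = 0.00721, and 0.89, SE 0.12, adjusted p = 3.86e-05). With FZD8_CRD, 4 rose and 3 fell without Wnt3a (median -0.04), and 1 rose and 6 fell with it (median -0.19), so that 7 of 15 were called in each, near the all-gene rates of 41.9% and 37.2% (about 6 of 15). SPRY4 fell in both (-0.79, SE 0.25, adjusted p = 0.015, and -1.48, SE 0.25, adjusted p = 0.000131), SPRY1 (-1.15, adjusted p = 5.43e-05) and DUSP6 (-1.01, adjusted p = 0.000401) fell with Wnt3a, and the transcription factor gene ETV5 rose without it (1.03, SE 0.23, adjusted p = 0.00147). DUSP6 also fell with control siRNA (-0.75, adjusted p = 0.00834, and -0.64, adjusted p = 0.0441). SPRED1 rose with Wnt3a in untransfected cells (0.46, adjusted p = 0.0302) and after control siRNA (0.50, adjusted p = 0.0326), the 1 of 15 called in each, beside 5.61% and 2.11% of all genes.

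**Figure D5:**
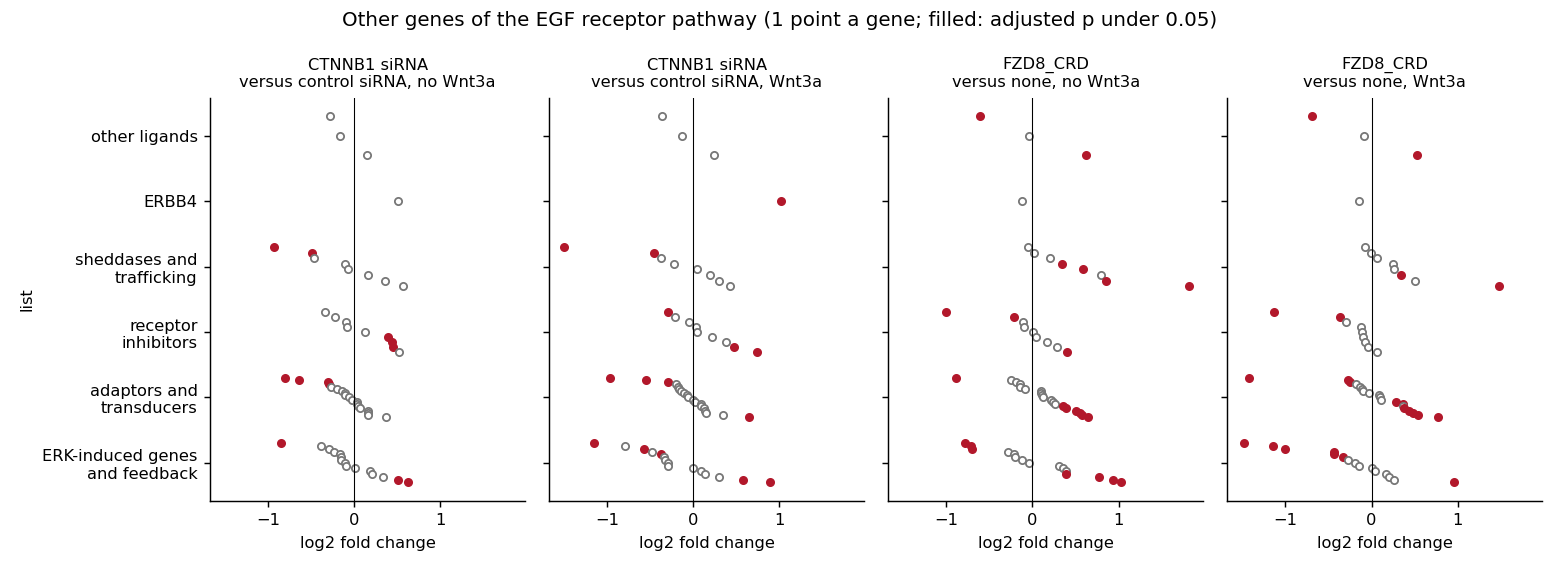
Log2 fold change (x axis) of the tested genes of 6 lists of the EGF receptor pathway (y axis, ordered within a list by value) in 4 comparisons, 1 point a gene, filled for an adjusted p under 0.05. ERBB4 is at 1.02 with CTNNB1 siRNA and Wnt3a, and with FZD8_CRD and Wnt3a 1 of the 15 ERK-induced and feedback genes rose and 6 fell, 7 of 15 beside 37.2% of all genes.

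For the 4 genes whose condition means spanned at least 1, the genes most like them over the 24 arrays were sought among 15942 others by Pearson's r, as a description. ERBB3 was most like NR1H4 (r = 0.986), SMLR1 (0.984) and ABCG8 (0.982). BTC was most like PRRC1 (0.947), MCFD2 (0.939) and ZDHHC24 (0.934). HBEGF was nearest to JOSD1 (0.936), MOK (0.921) and RGS19 (0.914), and EREG to TBPL1 (0.920), DUSP11 (0.918) and IL15 (0.917). The arrays share 8 conditions and 3 slides, so that these values reflect few independent differences.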

How the data were processed

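Total RNA of the 24 HepaRG cultures was labelled with Cy3 and hybridized to Agilent human arrays with 62976 spots in each scanner file. The deposited scanner files hold background-subtracted and detrended intensity values on a linear scale, not normalized between arrays, from Agilent Feature Extraction (10.7.3.1 per the labels, 10.7.1.1 per the file headers). The authors also deposited log2 values scaled to the 75th percentile and centred on the median of each probe, used here as an alternative. Between 58.3% and 66.5% of the probes of an array were well above background. Signals were divided by the 75th percentile of their array, and values under 1.43% of it were set to that floor (-6.13 on the log2 scale). Spots marked as outliers were left out (41 values missing). A probe was kept where it was well above background on all 3 arrays of a condition, which left 31031 probes, and the brightest probe stood for each of 24617 genes. Symbols came from RefSeq transcripts. The model held a mean for each of 8 conditions (limma 3.58.1 under R 4.3.3, two-sided moderated t tests with a variance trend), with 10 pairwise contrasts and 2 differences of Wnt3a responses, and p-values were adjusted by Benjamini-Hochberg over all genes. The fit was tested on simulated data. Python 3.11.15 with matplotlib 3.10.9 made the figures.

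The 9 genes and the lists were chosen with earlier results of these data known. The rule for named genes covered the 9 genes, CTNNB1, up to 3 called genes per list and comparison with the largest change (or the largest uncalled one), and the 3 genes most like each of the 9 whose means spanned at least 1. Cell type markers were given as counts called, summed signals and the changes of called genes or of those named for contrast. Alternatives were quantile normalization, normexp, the deposited values, other filters and floors, probe means, marked spots kept, spike-in scaling, a block for the replicate number, a fit of the compared conditions alone, no moderation, the thresholds of the study (unadjusted p under 0.01, fold change above 1.5 or below 0.7), and leaving out arrays. The tests of other probes of a gene, the use of the median signal for normexp (with the planned offset of 50), the choice of spike-in probes (7 of 10) and the way the floor was set were chosen after seeing the data.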

Additional observations from a re-analysis of the deposited data

How the results depend on the processing

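Of the 26 calls for the 9 genes, 24 were kept and 1 was gained with quantile normalization, with the deposited values and with the mean of the probes. Normexp kept 25, no filter on dim probes 22, no moderation 23, and the floor of 1 or marked spots kept all 26, as did probes well above background on all arrays, with 1 gained. A fit of only the conditions compared kept 13 and gained 1, spike-in scaling kept 6, and the thresholds of the study kept 18 and gained 1. Some calls lost with spike-in scaling had values about as large as before, and others moved towards 0. Among the former were EGFR for Wnt3a with FZD8_CRD (-0.66, from -0.57) and AREG for FZD8_CRD with Wnt3a (0.59, from 0.68). The number of the 9 genes called for Wnt3a with FZD8_CRD present went from 2 to 1 with the deposited values, quantile normalization, no moderation or no filter, and to 0 with spike-in scaling or only the conditions compared. With spike-in scaling it was 1 and 0 for control siRNA without and with Wnt3a (2 and 5 before), 1 and 1 for CTNNB1 siRNA (2 and 4) and 1 and 2 for FZD8_CRD (5 and 6). The counts over all genes fell too. They were 1540 and 240 for control siRNA (5492 and 2224 before), 182 and 639 for CTNNB1 siRNA (2607 and 2610) and 7361 and 2361 for FZD8_CRD (10319 and 9162). With only the conditions compared, the number of the 9 genes called was 0 for control siRNA with Wnt3a, 2 for CTNNB1 siRNA with Wnt3a and 2 for FZD8_CRD without it, where fewer arrays estimated the spread. The thresholds of the study, which change both the p-value and the fold needed, gave 1 and 3 for control siRNA, 1 for CTNNB1 siRNA without Wnt3a, 3 and 4 for FZD8_CRD and 1 (EREG) for its interaction with Wnt3a. Over all genes these thresholds gave 2681 and 1349, 1395, 5510 and 4652, and 729, in the same order. The cause of the other changes was not tested. Changes of sign among called values were AREG and EGF with FZD8_CRD without Wnt3a under spike-in scaling (both 0.00), and, in probes added after seeing the data, EGFR in control siRNA with Wnt3a (0.21) and ERBB3 in FZD8_CRD with Wnt3a (0.02). Of 2115 estimates of the 9 genes and CTNNB1 that were uncalled in both settings, 167 changed sign.

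With arrays left out, the number called ran from 0 to 2 for Wnt3a in untransfected cells, 0 to 3 with FZD8_CRD present, 0 to 3 and 0 to 5 for control siRNA, 1 to 2 and 2 to 4 for CTNNB1 siRNA, 2 to 5 and 3 to 7 for FZD8_CRD, and 0 to 2 for the interaction of FZD8_CRD with Wnt3a; for the remaining 3 comparisons it was 0 throughout. After the condition means were taken off, arrays that share a replicate number had a mean correlation of 0.38 and the others one of -0.19, and r was over 0.1 in 82 of 84 pairs with a shared number. With the replicate block, all 26 calls were kept and EGFR for control siRNA without Wnt3a was added, at a log2 fold change of -0.29 (adjusted p = 0.0386). The counts over all genes moved too. For control siRNA, the 5492 and 2224 genes ran from 235 to 6876 and from 1 to 4042 with arrays left out, and from 1540 to 7904 and from 1 to 3755 in the alternatives. For CTNNB1 siRNA, the 2607 and 2610 ran from 476 to 2376 and from 588 to 2645, and in the alternatives from 182 to 4327 and from 639 to 3845. For FZD8_CRD, the 10319 and 9162 ran from 6212 to 11231 and from 4107 to 10122, and in the alternatives from 5510 to 13132 and from 2361 to 11937. All 9 genes were well above background on 24 arrays, and 0 values were saturated.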
